A study of Homo sapiens with 3 samples.

Results

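The receptors, co-receptor and adaptors that can pass on a fibroblast growth factor (FGF) signal were examined in LX-2 cells by mRNA-seq. The 10 genes were taken by symbol from a table of 24254 symbols: the kinase receptors FGFR1, FGFR3 and FGFR4, the kinase-lacking receptor FGFRL1, the co-receptor KLB (β-Klotho), and the adaptors FRS2, FRS3, GAB1, GRB2 and SHC1. All 10 had a row in the table, and the question was which of the receptors could carry an FGF19 signal in these cells. Other genes of the receptor family were not analysed here.

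FGF19 is an endocrine FGF that is released from the ileum in response to bile acids and restrains bile acid synthesis in hepatocytes. Endocrine FGFs bind heparan sulfate weakly and therefore need a Klotho protein beside an FGF receptor on the cell surface, and in the liver FGF19 is known for acting through FGFR4 together with KLB. An activated receptor phosphorylates the membrane-bound docking proteins FRS2 and FRS3, which recruit GRB2 and, through it, the RAS activator SOS and the docking protein GAB1.

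LX-2 is an established, immortalised human hepatic stellate cell line, the stellate cell being the collagen-producing pericyte of the liver. The vehicle library came from LX-2 cells that received no rhFGF19 (recombinant human FGF19), and the other libraries came from LX-2 cells given rhFGF19 at 50 or 100 ng/mL. Each condition was represented by 1 library of poly(A) RNA, so that no difference below has a replicate check and both comparisons share the single vehicle library. The stimulation time is given as 24 h in the series design but as 72 h and 73 h in the sample descriptions, which also exchange the doses of both rhFGF19 libraries. The doses used here follow the sample titles, and 50 and 100 are to be exchanged throughout if the descriptions are right. The libraries are called vehicle, low dose (50 ng/mL) and high dose (100 ng/mL) below.

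Expression was read as FPKM (fragments mapped to a gene per kilobase of its transcript, relative to all mapped fragments), which accounts for transcript length and allows levels of different genes to be set side by side. No read counts accompany the FPKM values, so the depth of each library is unknown. The values summed to 302243 in vehicle, 276690 at the low dose and 281606 at the high dose, and 8891, 10929 and 10905 symbols, respectively, had at least 1 FPKM. Because the RNA came from whole cultures, fewer cells that express a gene and less of its RNA per cell cannot be told apart.

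The cell type label was compared with marker genes. Of the 11 stellate cell markers, 10 were in the table, with a summed FPKM of 1062 in vehicle, 1082 at the low dose and 1089 at the high dose. VIM, a mesenchymal intermediate filament, was the most abundant of them at 439, 654 and 649 FPKM, and the collagen gene COL1A1 stood at 78.4, 108 and 104 FPKM. TIMP1, an inhibitor of matrix proteases, was at 308, 184 and 193 FPKM and TAGLN, an actin-binding protein, at 223, 118 and 126 FPKM, both highest in vehicle and short of a 2-fold difference. LRAT, the retinol-esterifying enzyme of quiescent stellate cells, was listed at 0 in all 3 libraries, and DES (desmin) was listed at 0 in 2 libraries and at 0.080 FPKM at the high dose. COL1A2 was at most 0.14 FPKM. COL3A1 was at 1.79, 4.15 and 4.30 FPKM, ACTA2 at 8.55, 8.01 and 7.74, and PDGFRB at 3.86, 5.78 and 5.25. Of the markers, LRAT, DES and COL1A2 were thus at or near 0, and the collagen genes were not alike.

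Of the kinase receptors analysed here, FGFR1 had the most mRNA in these cells, and that of the co-receptor KLB was at or near 0 in every library. In vehicle, the order of FPKM was SHC1, GRB2, FGFRL1, FGFR1, FRS3, FGFR4, FGFR3, FRS2, GAB1 and KLB. In both rhFGF19 libraries FGFR1 stood above FGFRL1, and the remaining order was the same apart from FGFR3 and FGFR4, which exchanged places at the low dose. The plot of FPKM by library shows 4 genes (SHC1, GRB2, FGFR1 and FGFRL1) above or near 10 FPKM and the other 6 below 4.

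**Figure D1:**
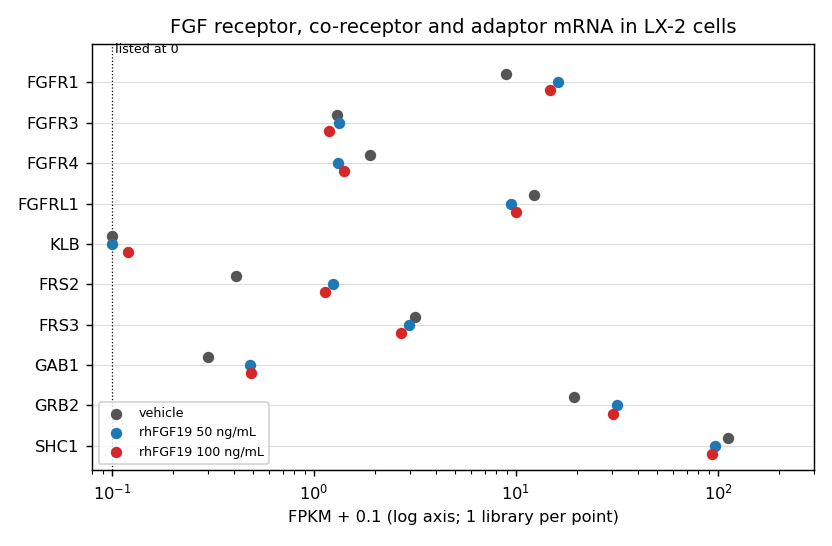
FPKM + 0.1 of each of the 10 genes on a log axis, with 1 point per library (grey, vehicle; blue, low dose; red, high dose) and a dotted line where a gene is listed at 0. SHC1 was highest, between 93.3 and 112 FPKM, and KLB was lowest, at 0, 0 and 0.020 FPKM.

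FGFR1, a receptor tyrosine kinase that is widely expressed in mesenchymal cells, had the highest FPKM of the 3 kinase receptors in every library. The gene (ENSG00000077782) lies at chr8:38400215-38468834 on the minus strand of GRCh38. Its mRNA was at 8.86 FPKM in vehicle, 16.0 at the low dose and 14.7 at the high dose. Both rhFGF19 libraries were above the vehicle library and close to each other. Among the symbols with a value above 0 in the same library, FGFR1 stood at percentile 81.2 in vehicle, 87.0 at the low dose and 86.0 at the high dose.

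Fold changes were differences of log2(FPKM + 0.1), a scale on which low genes appear to change less than they did, and a gene was counted as higher or lower past 2-fold. FGFR1 had a log2 fold change of 0.84 at the low dose (1.79-fold) and 0.72 at the high dose (1.65-fold), short of 2-fold at both doses. LETM2, which overlaps FGFR1 on the opposite strand, was at 1.38, 1.85 and 1.86 FPKM. Whether strand was used in making the FPKM values is not given in the sources used here, so the part of the LETM2 transcript in the FGFR1 value cannot be told apart.

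FGFR4, the receptor through which FGF19 acts on hepatocytes, was low in LX-2 cells. The gene (ENSG00000160867) lies at chr5:177086905-177098022 on the plus strand. It had 1.79 FPKM in vehicle, 1.21 at the low dose and 1.31 at the high dose. The vehicle library was the highest of the 3, and the log2 fold changes of -0.53 and -0.42 did not reach 2-fold. FGFR4 stood at percentile 63.1 of the symbols above 0 in vehicle, and at 50.8 and 52.1 in the rhFGF19 libraries. With quantile normalization, which gives every library the same distribution of values, its log2 fold changes were -1.37 and -1.25, past 2-fold. With the GC trend removed they were -0.045 and 0.044, and with the GC and length trends removed 0.021 and 0.11. The direction thus depended on the processing.

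FGFR3, known for restraining the growth of cartilage, was also low. The gene (ENSG00000068078) lies at chr4:1793293-1808872 on the plus strand. Its FPKM was 1.20 in vehicle, 1.23 at the low dose and 1.09 at the high dose. As deposited, the 3 libraries were nearly level, with log2 fold changes of 0.033 and -0.13. At the low dose the sign depended on the scaling, being negative with the median ratio over well expressed genes set to 0 (-0.20) and with quantile normalization (-0.85). At the high dose the value was -0.99 with quantile normalization, just short of 2-fold, and -0.87 with the length trend removed. The sign at that dose turned with the GC trend removed (0.31) and with the GC and length trends removed (0.20). In the rhFGF19 libraries the order of FGFR3 and FGFR4 was not the same, with FGFR3 slightly above FGFR4 at the low dose and below it at the high dose.

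Within the summed FPKM of FGFR1, FGFR3 and FGFR4, FGFR1 made up 74.8% in vehicle, 86.7% at the low dose and 86.0% at the high dose. FGFR4 made up 15.1%, 6.57% and 7.67% of the same sums. FGFR1 was thus the main kinase receptor transcript of the 3 with and without rhFGF19, and the share of FGFR4 was largest in vehicle. The ratio of FGFR1 to FGFR4 FPKM was 4.95 in vehicle, 13.2 at the low dose and 11.2 at the high dose. These ratios compare transcripts that differ in GC content, 56.1% for FGFR1 and 64.0% for FGFR4, and the part of GC content in them was not tested.

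**Figure D2:**
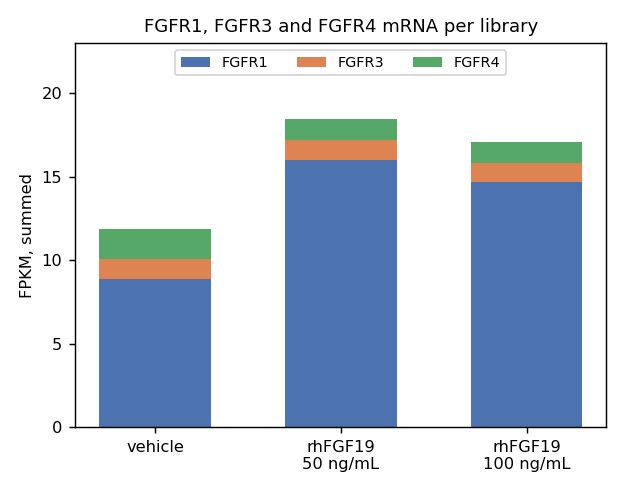
FPKM of FGFR1, FGFR3 and FGFR4 stacked for each library, with bars starting at 0. The bars reach 11.9 in vehicle, 18.4 at the low dose and 17.1 at the high dose, and the FGFR1 segment is the largest in each.

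FGFRL1, which binds FGFs but lacks the tyrosine kinase domain, was of the same order of abundance as FGFR1. The gene (ENSG00000127418) lies at chr4:1009936-1026891 on the plus strand. It had 12.1 FPKM in vehicle, 9.37 at the low dose and 9.85 at the high dose. The vehicle library was again the highest, and the log2 fold changes were -0.37 and -0.30. With the length trend removed it was lower just past 2-fold at the low dose, and at -0.92 at the high dose. The ratio of FGFRL1 to FGFR1 was 1.37 in vehicle, 0.587 at the low dose and 0.671 at the high dose, so that FGFRL1 exceeded FGFR1 in the vehicle library only. With the GC trend removed the log2 fold changes of FGFRL1 were above 0, at 0.19 and 0.25.

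KLB, the transmembrane co-receptor that FGF19 needs for high-affinity binding, was listed at 0 FPKM in vehicle and at the low dose and at 0.020 FPKM at the high dose. The gene (ENSG00000134962) lies at chr4:39406930-39451533 on the plus strand and has 1 listed transcript of 6082 bases. The smallest value above 0 in the table was 0.010 FPKM, and no fold change is given for KLB. A value of 0 was common in the table, being listed for 4716 symbols in vehicle, 3208 at the low dose and 3218 at the high dose. Of 15 widely expressed genes looked up for comparison, 0 were listed at 0 in any library, and the lowest value among them was 4.55 FPKM. Being abundant, these genes cannot show whether a listed 0 means absence for a low transcript. Without read counts, the level of KLB that these libraries could have missed cannot be given. The related co-receptor KL was not analysed here.

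Promoter sequences are shown for the receptor and co-receptor of hepatic FGF19 signalling, since these were low and near 0 in LX-2 cells. RefSeq windows on GRCh38.p14, from 250 bases before to 50 after an annotated start, were read for 8 of the 10 genes (10 windows). Windows of FGFR1 were left out of the search, and none was found for GAB1. Capitals mark GGGCGG on either strand, the core of the GC box bound by SP1-family factors, and overlapping matches, which run together in capitals, are counted separately. The KLB window (chr4:39406680-39406979, plus strand) held 0 GC boxes and 6 CpG dinucleotides at 42.3% GC, and the first FGFR4 window (chr5:177086665-177086964, plus strand) held 7 GC boxes and 30 CpG at 78.7% GC. The second FGFR4 window (chr5:177089300-177089599, plus strand), which is not printed, held 0 GC boxes and 2 CpG at 57.3% GC.
KLB: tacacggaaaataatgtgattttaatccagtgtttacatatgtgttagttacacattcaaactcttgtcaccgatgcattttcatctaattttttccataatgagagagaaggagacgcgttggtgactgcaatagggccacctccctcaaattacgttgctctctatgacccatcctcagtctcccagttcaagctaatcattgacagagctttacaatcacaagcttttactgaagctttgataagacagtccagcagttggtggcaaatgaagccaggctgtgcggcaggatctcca
FGFR4: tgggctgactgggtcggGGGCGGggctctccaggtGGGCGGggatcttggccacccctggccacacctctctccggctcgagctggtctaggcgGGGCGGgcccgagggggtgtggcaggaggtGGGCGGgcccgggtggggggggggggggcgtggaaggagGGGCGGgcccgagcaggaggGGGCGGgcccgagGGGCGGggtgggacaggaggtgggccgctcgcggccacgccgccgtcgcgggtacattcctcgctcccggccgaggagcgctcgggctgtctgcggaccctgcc

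Over all 35116 windows the median GC content was 58.7%, with 14 CpG at the median, and 45.0% of windows held a GC box. The KLB window had a GC content above that of 15.5% of the windows and the 2 FGFR4 windows above that of 96.0% and 46.3%, so the starts of FGFR4 were not alike in this. The FGFR3 window was richer still, at 86.3% GC with 51 CpG and 8 GC boxes. The palindromic STAT motif TTCNNNGAA, found in 7.66% of all windows, and TATAAA, found in 11.5%, were in 0 of the windows of the 8 genes. A motif match, or its lack, describes only the letters of these windows.

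Among the adaptors, SHC1 and GRB2 were abundant, FRS3 was intermediate, and FRS2 and GAB1 were low. FRS2 was the gene of the 10 that passed 2-fold, in both rhFGF19 libraries. FRS2 is the main docking protein of FGF receptors. Its promoter window (chr12:69470138-69470437, plus strand, GRCh38.p14, RefSeq) is shown because its value passed 2-fold, a call with the limits given below. It held 3 GC boxes (capitals) and 18 CpG at 61.0% GC.
FRS2: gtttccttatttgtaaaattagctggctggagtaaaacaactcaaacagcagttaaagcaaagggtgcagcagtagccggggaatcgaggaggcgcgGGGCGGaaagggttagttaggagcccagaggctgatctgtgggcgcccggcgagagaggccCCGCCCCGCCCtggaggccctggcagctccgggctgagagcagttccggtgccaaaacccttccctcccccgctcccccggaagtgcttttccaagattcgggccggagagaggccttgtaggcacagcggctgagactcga

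The FRS2 gene (ENSG00000166225) lies at chr12:69470349-69579789 on the plus strand. Its FPKM was 0.31 in vehicle, 1.14 at the low dose and 1.03 at the high dose. With 0.1 added to each FPKM, FRS2 rose 3.02-fold at the low dose and 2.76-fold at the high dose. The log2 fold changes were 1.60 and 1.46, and the FPKM values themselves differ by more than this. The vehicle value lay below the minimum mean of 0.5 FPKM over the 3 libraries that a gene had to reach to be compared, and FRS2 met it through the rhFGF19 libraries, so that it had to be higher there. The call was lost with a pseudocount of 1, where the log2 fold changes were 0.71 and 0.63, and when a mean of 1 FPKM was required.

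FRS3, the second docking protein of the family, was at 3.06 FPKM in vehicle, 2.85 at the low dose and 2.60 at the high dose. The gene (ENSG00000137218) lies at chr6:41770176-41786542 on the minus strand. As deposited, its libraries differed little, with log2 fold changes of -0.099 and -0.23. The values were -0.85 and -0.98 with quantile normalization and -0.76 and -0.88 with the length trend removed, short of 2-fold. At the low dose the sign turned when values were rescaled to TPM (values summing to the same total in each library, 0.025). It turned at both doses with the GC trend removed (0.22 and 0.072) and with the GC and length trends removed (0.14 and 0.0024). The ratio of FRS3 to FRS2 FPKM was 9.87 in vehicle, 2.50 at the low dose and 2.52 at the high dose, so FRS3 was the more abundant docking transcript in each library. An unnamed protein-coding gene, AL365205.1, overlaps FRS3 on the opposite strand with 14.9, 15.8 and 11.8 FPKM, and its part in the FRS3 value cannot be told apart.

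GAB1, a docking protein that links GRB2 to PI3K and SHP2, did not reach the minimum mean. The gene (ENSG00000109458) lies at chr4:143336762-143474568 on the plus strand. It was at 0.20 FPKM in vehicle, 0.38 at the low dose and 0.39 at the high dose. All 3 values were low, and GAB2, its close relative, was at 2.45, 5.50 and 4.66 FPKM. The ratio of GAB2 to GAB1 was 12.3 in vehicle, 14.5 at the low dose and 11.9 at the high dose, so GAB2 was the main GAB transcript of this pair in each library.

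GRB2, the SH2 and SH3 adaptor that brings SOS to activated receptors, was among the abundant genes. The gene (ENSG00000177885) lies at chr17:75318076-75405709 on the minus strand. It had 19.2 FPKM in vehicle, 31.7 at the low dose and 30.0 at the high dose. Both rhFGF19 libraries were above vehicle, with log2 fold changes of 0.72 (1.64-fold) and 0.64 (1.56-fold), short of 2-fold. With the trend of fold change on transcript length removed, they were -0.086 and -0.15.

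SHC1, a phosphotyrosine adaptor used by many receptor tyrosine kinases, was the most abundant of the 10 genes in every library. The gene (ENSG00000160691) lies at chr1:154962298-154974376 on the minus strand. Its FPKM was 112 in vehicle, 96.6 at the low dose and 93.3 at the high dose, at percentiles 97.7, 97.9 and 97.8. The rhFGF19 libraries were a little below vehicle, with log2 fold changes of -0.22 and -0.27, and at the low dose the sign turned with quantile normalization (0.028). The ratio of SHC1 to GRB2 was 5.85 in vehicle, 3.05 at the low dose and 3.12 at the high dose. PYGO2, which overlaps SHC1 on the same strand, was at 28.9, 22.8 and 24.4 FPKM, and the processed copy SHC1P2 was at no more than 0.020 FPKM.

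Of the 10 genes, 8 reached a mean of 0.5 FPKM and were compared, and KLB and GAB1 were not. At the low dose, 1 gene (FRS2) was higher past 2-fold and 0 were lower, while among all 12422 symbols compared 39.5% were higher and 1.75% lower. At the high dose the same gene was higher and 0 were lower, against 38.6% higher and 1.47% lower among all symbols. A doubling was thus common in the table as a whole, and the FRS2 call was of a kind that many genes shared. The median log2 fold change over all symbols compared was 0.62 at both doses, from -0.67 at the 10th to 1.64 at the 90th percentile at the low dose.

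Between the rhFGF19 libraries, 0 of the 8 genes differed past 2-fold, against 1.64% of all symbols. The largest difference was -0.16 on the log2 scale, for FGFR3, at the high against the low dose. For FGFR1 it was -0.12 and for FRS2 -0.13. The median absolute difference over all symbols compared was 0.089, and 95% of them lay within 0.54. Over the 8 genes it was 0.11, which was not smaller than that of all symbols. The levels of the receptors and adaptors were thus close at both doses, as were those of most symbols.

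The fold changes of the receptors and adaptors were next set beside those of genes with like transcripts, since fold changes against vehicle followed transcript GC content across the table. Genes of like GC content were those within 2 percentage points. FGFR1, at 56.1% GC, was compared with 1781 such genes, whose median log2 fold change was -0.070 at the low dose and -0.063 at the high dose, with upper quartiles of 0.46 and 0.45. The FGFR1 values of 0.84 and 0.72 lay above these upper quartiles at both doses. With the GC trend removed they were 0.86 and 0.73, and its log2 fold change stayed positive in the 6 alternative analyses (scalings and trend removals) that could turn the sign.

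FRS2, at 43.3% GC, lay close to its 1945 genes of like GC content, whose medians were 1.39 at the low dose and 1.37 at the high dose. Their upper quartiles were 1.60 and 1.59, so FRS2 lay just under the upper quartile at the low dose and between the median and the upper quartile at the high dose. With the GC trend removed the FRS2 log2 fold changes were 0.23 and 0.12. A rise past 2-fold was thus usual for genes of its GC content, and the part of GC content in the rise of FRS2 was not tested.

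FGFR4, at 64.0% GC, lay near the medians of its genes of like GC content, -0.52 and -0.51. Its GC-adjusted values were -0.045 at the low dose and 0.044 at the high dose. FGFR3, at 62.9% GC, lay above the upper quartile of -0.19 at the low dose and of -0.18 at the high dose, with GC-adjusted values of 0.48 and 0.31. The pair of low receptors thus differed from each other relative to genes of like GC content, although neither passed 2-fold as deposited. FGFRL1, FRS3, GRB2 and SHC1 lay between the quartiles of their own genes of like GC content at both doses. The part of GC content in these differences was not tested.

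**Figure D3:**
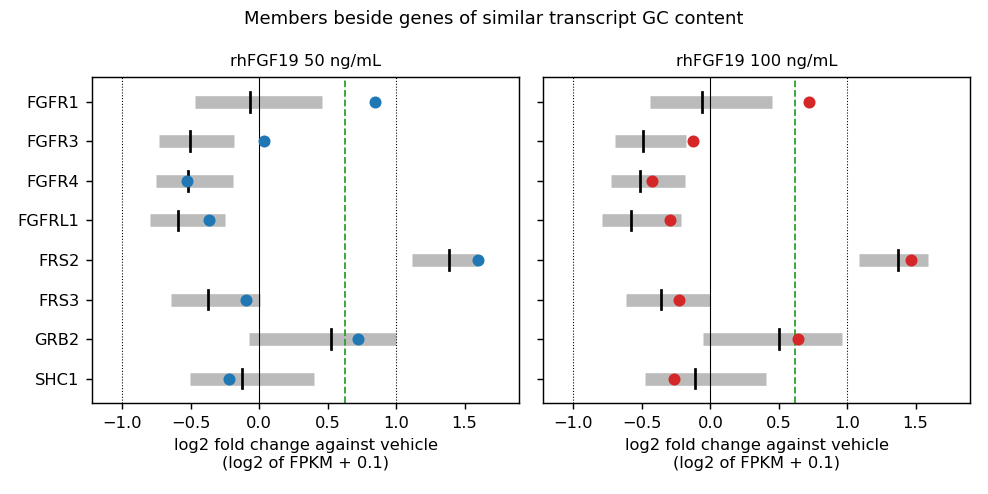
Log2 fold change against vehicle of the 8 genes compared (points), low dose on the left and high dose on the right. Grey bars span the quartiles and black ticks the median of genes of like GC content, the green dashed line is the median of all symbols compared (0.62), and dotted lines mark 2-fold; FGFR1 and FGFR3 lie to the right of their bars in both panels.

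**Figure D4:**
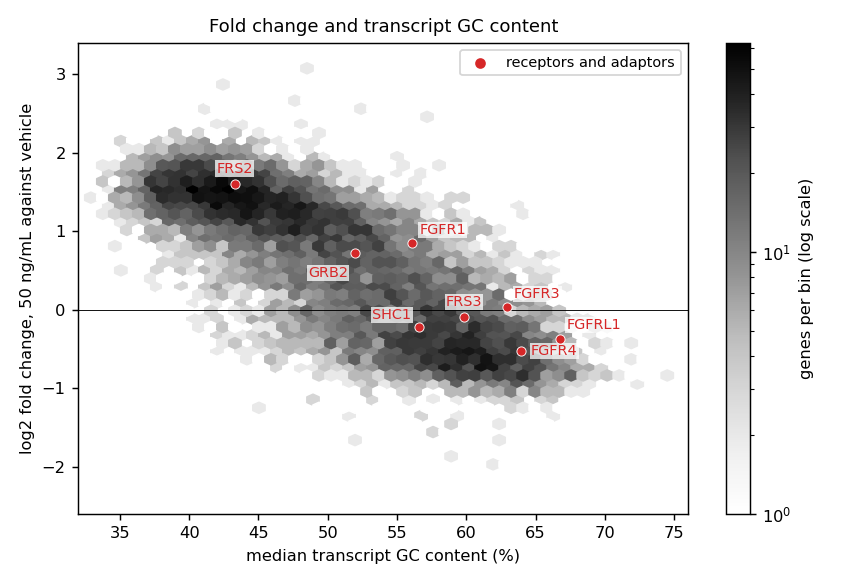
Log2 fold change at the low dose against median transcript GC content, with all symbols compared as grey bins on a log colour scale. FRS2 at 43.3% GC stands at 1.60 and FGFR4 at 64.0% GC stands at -0.53, and FGFR1 at 56.1% GC stands at 0.84, all 3 inside the grey band.

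The background itself moved with the scaling. With the median ratio to vehicle centred on 0, over symbols that had 1 FPKM or more in each library, the median over all symbols compared was 0.39 at both doses, and 29.8% were higher and 6.46% lower at the low dose (29.2% and 5.03% at the high dose). After rescaling to TPM the medians were 0.77 and 0.74. With quantile normalization they were 0.10 and 0.084, and 9.46% of symbols were higher and 10.1% lower at the low dose (8.58% and 9.36% at the high dose). With the GC trend removed, 3.74% were higher and 5.12% lower at the low dose (3.32% and 4.58% at the high dose), and with the length trend removed 14.0% were higher and 16.2% lower (13.5% and 15.2%). With both trends removed, 3.91% were higher and 4.17% lower (3.45% and 3.72%). FRS2 was not past 2-fold with quantile normalization or with the GC trend removed.

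The symbols whose levels were most like those of FGFR1 over the 3 libraries, by Euclidean distance on the log2(FPKM + 0.1) scale, included XBP1, the nearest, and TPST1. XBP1 had 8.59 FPKM in vehicle, 16.2 at the low dose and 14.8 at the high dose, at a distance of 0.049. Within a distance of 0.2 there were 23 symbols for FGFR1. The nearest to FGFR4 were C16orf86, VAX2 and DLX4, with C16orf86 at 1.69, 1.21 and 1.34 FPKM and 10 symbols within 0.2. With 3 libraries, such likeness is shared by many genes.

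Most of the further adaptors and effectors compared were higher in the rhFGF19 libraries. Of 17 listed, 16 were in the table and 11 reached the minimum mean, of which 8 were higher past 2-fold at the low dose and 7 at the high dose, and 0 were lower, against 39.5% and 38.6% higher among all symbols. Their median log2 fold change was 1.18 and 1.20, against 0.62 for all symbols. PTPN11, which encodes the phosphatase SHP2 that binds FRS2 and GAB1, rose from 3.87 FPKM to 12.2 and 12.4. PLCG1, the phospholipase bound directly by FGF receptors, was at 27.3, 33.6 and 33.5 FPKM. After removal of the GC trend the medians were 0.29 and 0.32 and the numbers higher were 1 and 0, and the part of GC content was not tested. The numbers higher were 4 at each dose with a pseudocount of 1, and 3 and 2 with quantile normalization, with 1 lower at each dose. They were 1 and 2 with the length trend removed, again with 1 lower at each dose.

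JAK2 and STAT3, a kinase and a transcription factor that receptors can engage beside the RAS route, were both higher past 2-fold, as were 39.5% and 38.6% of all symbols. JAK2 was at 0.19 FPKM in vehicle, 0.70 at the low dose and 0.67 at the high dose, and STAT3 at 5.68, 12.5 and 12.4 FPKM. JAK2, like FRS2, met the minimum mean only through the rhFGF19 libraries. The medians of the pair were 1.3 and 1.26, and with the GC trend removed they were 0.19 and 0.16, with JAK2 at -0.074 and -0.13. With the GC or the length trend removed, or with quantile normalization, 0 of the pair were higher past 2-fold at either dose.

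Feedback and ERK response genes report on the output of FGF receptors. Of 9 listed, 7 reached the minimum mean, with 4 higher past 2-fold at the low dose, 3 at the high dose and 0 lower, and medians of 1.0 and 0.98. The shares higher among all symbols were 39.5% and 38.6%. DUSP6, a phosphatase of ERK, rose from 4.66 FPKM to 11.2 and 11.3. ETV4, a transcription factor induced by FGF signals, was at 40.2, 22.4 and 23.4 FPKM, with log2 fold changes of -0.84 and -0.78. ETV4 thus lay on the other side of 0 from the genes of the list that rose. Once the GC trend was removed, the medians were 0.083 and -0.036, and 1 gene of the list was higher at each dose. The number higher was 0 with quantile normalization, and with the median log2 ratio to vehicle set to 0 it was 1, with 1 lower, at each dose. It was 1 at each dose with a pseudocount of 1, and 0, with 1 lower, with the length trend removed. After rescaling to TPM it was 5 at each dose.

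Among FGF ligands, 8 of 18 were in the table and 3 reached the minimum mean, of which 2 were higher past 2-fold at both doses and 0 lower (medians 1.23 and 1.42), against 39.5% and 38.6% higher among all symbols. FGF2 rose from 4.60 FPKM to 13.6 and 13.3, and FGF5 from 2.80 to 6.71 and 7.67. After adjustment for GC content the medians, which are the values of FGF5, were -0.29 and -0.094. With the GC or the length trend removed, 0 ligands were higher past 2-fold. FGF19 and FGF21 were not analysed here.

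Other receptor tyrosine kinases that share GRB2 and SHC1 with FGF receptors were in part far more abundant. AXL was at 216 FPKM in vehicle, 366 at the low dose and 371 at the high dose, which was 24.4, 22.9 and 25.3 times FGFR1. EGFR was at 4.46 FPKM in vehicle and 10.3 in each rhFGF19 library, below FGFR1 and above FGFR4 in every library. Of 14 listed, 11 reached the minimum mean, with 6 higher past 2-fold at the low dose, 5 at the high dose and 0 lower (medians 1.12 and 0.90), against 39.5% and 38.6% higher among all symbols. INSR, at 0.21, 0.90 and 0.69 FPKM, met the minimum mean only through the rhFGF19 libraries, and with a minimum mean of 1 FPKM the numbers higher were 5 and 4. Without the GC trend the medians were 0.44 and 0.41, and 2 were higher at each dose. The numbers higher were 1 and 0 with the length trend removed, and 2 and 1 with quantile normalization. They were 3 and 2 with a pseudocount of 1, and 3 at each dose with the median log2 ratio set to 0. After rescaling to TPM they were 6 at each dose.

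**Figure D5:**
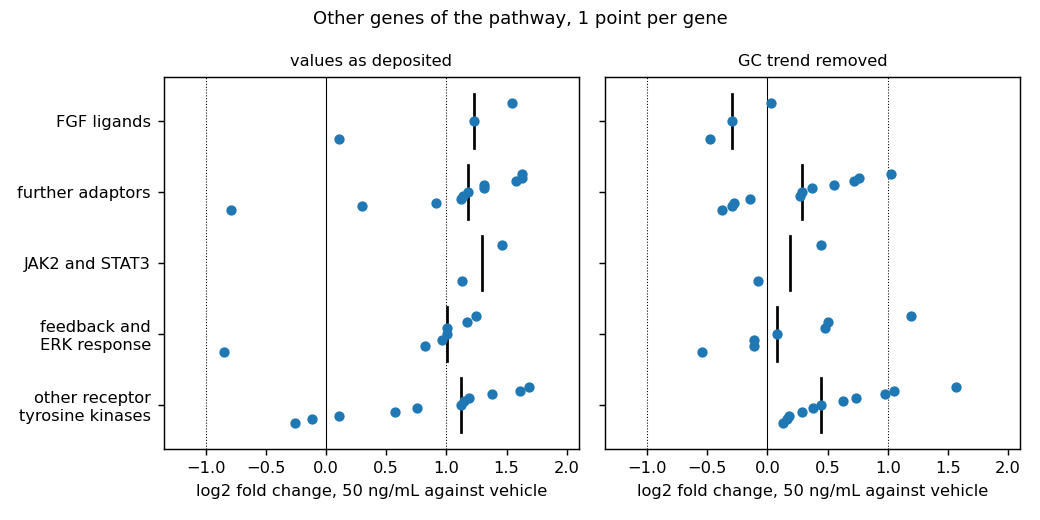
Log2 fold change at the low dose of the genes that reached the minimum mean in the 5 pathway lists shown, 1 point per gene with the median as a black tick, as deposited on the left and with the GC trend removed on the right. The lowest median of the lists shown is 1.0 on the left (feedback and ERK response), and on the right the medians lie between -0.29 and 0.44.

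Markers of other cell types were also read in the same libraries. Of 8 hepatocyte markers, 7 were in the table, with a summed FPKM of 11.3 in vehicle, 12.5 at the low dose and 11.5 at the high dose. SERPINA1 was the most abundant at 8.93, 9.62 and 9.11 FPKM and ALB stood at 2.16, 2.49 and 1.89, whereas HNF4A was listed at 0, 0 and 0.010 FPKM. Of 7 epithelial markers, 4 were in the table, summing to 503, 308 and 302 FPKM, nearly all of it KRT18 and KRT8, with CDH1 at 0.010, 0.010 and 0. Of 8 blood cell markers, 5 were in the table, summing to 52.0, 47.0 and 42.4 FPKM, mostly CD68, and the 4 endothelial markers summed to 0.50, 0.48 and 0.48 FPKM. FGFR4 and the summed epithelial, blood cell and endothelial markers were highest in vehicle, the endothelial sum only slightly. The summed hepatocyte markers were instead highest at the low dose. The part of any of these cell types in the FGFR4 value was not tested.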

How the data were processed

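Total RNA of LX-2 cells was enriched for poly(A) RNA and sequenced as paired ends on an Illumina instrument, with 1 library per condition. The authors deposited 1 table of FPKM values, written to 2 decimals, with identifiers and positions. Per the labels, the submitters' processing notes name Bowtie 0.12.2, HISAT2 2.0 and StringTie 1.3.0 and the builds mm8 and hg19, with no roles; which program made the FPKM values is not given in the sources used here. The positions overlapped those of GRCh38 (GENCODE 29) for 25527 of 25531 identifiers, so GRCh38 was used. The table holds no comparison columns of the authors.

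FPKM of rows sharing a symbol were summed. log2(FPKM + 0.1) was subtracted between single libraries for symbols averaging 0.5 FPKM or more over the 3 libraries, and 2-fold was the threshold. No test was run, because there is 1 library per condition, and depth is unknown. Genes named were all members of the receptor and adaptor list, genes of the pathway and marker lists, and symbols among the 3 nearest to FGFR1 and to FGFR4. Genes that overlap a member, and a processed copy, were chosen after their values were seen. The result of 1 pathway list is not reported here. The members and lists were chosen with earlier results of these data known. Transcript GC content and length were medians over the GENCODE transcripts listed for a gene, found for 97.3% of symbols, and their trends were removed by lowess with a span of 0.3. The calculation was tested on simulated data. The alternatives were 2 other pseudocounts, 2 other filters, 3 scalings, 3 trend removals, 1 other handling of shared symbols and 1 other fold threshold. Python 3.11.15 was used with NumPy 2.4.6, pandas 2.3.3, statsmodels 0.14.6 and matplotlib 3.10.9.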

Additional observations from a re-analysis of the deposited data

How the results depend on the processing

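The other filters, pseudocounts and handling of shared symbols did not turn the direction of any receptor or adaptor compared. Under the other 6 alternatives (scalings and trend removals) the log2 fold change of FGFR1 stayed positive, from 0.48 to 0.98 at the low dose and from 0.36 to 0.83 at the high dose. That of FRS2 ranged from 0.23 to 1.91 and from 0.12 to 1.74. FRS2 met the minimum mean through the rhFGF19 libraries, so its positive sign says nothing further. The number of receptors and adaptors higher past 2-fold, 1 at each dose, was 0 at both doses with a pseudocount of 1, a minimum mean of 1 FPKM (which removes FRS2), quantile normalization, the GC trend removed, or the GC and length trends removed. Past 1.5-fold it was 3 at both doses (FGFR1, FRS2 and GRB2), while 51.0% and 50.8% of all symbols were higher. The number lower, 0 at each dose, was 1 at both doses with quantile normalization (FGFR4) and 1 at the low dose with the length trend removed (FGFRL1). The number apart between the doses was 0 under every alternative, which for that count, and for the counts of the pathway lists, were chosen after seeing the data.

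Of the 96 values of single genes under these 6 alternatives, 67 kept their direction and side of the threshold, 6 were weaker, 3 were stronger and 20 turned direction. With a pseudocount of 1, FRS2 was below 2-fold at 0.71 and 0.63. FGFR3 turned at the low dose to -0.20 with the median ratio set to 0, -0.85 with quantile normalization and -0.72 with the length trend removed, and at the high dose to 0.31 with the GC trend removed and 0.20 with both trends removed. FRS3 turned at the low dose to 0.025 as TPM, 0.22 (GC) and 0.14 (both), and at the high dose to 0.072 (GC) and 0.0024 (both). FGFR4 turned at the high dose to 0.044 (GC) and 0.11 (both) and at the low dose to 0.021 (both). FGFRL1 turned to 0.19 and 0.25 (GC) and 0.13 and 0.20 (both) at the low and the high dose. SHC1 turned at the low dose to 0.028 with quantile normalization, and GRB2 to -0.086 and -0.15 with the length trend removed. Removing a trend brings the median over all symbols near 0 by its construction; otherwise the cause was not tested. With the GC trend removed, the further adaptors higher past 2-fold numbered 1 at the low and 0 at the high dose, against 8 and 7 as deposited. No paired analysis was possible because each condition has 1 library, and none could be left out. Depth is unknown.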
